A study of Mus musculus with 12 samples.

Results

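Endoplasmic reticulum chaperones are the proteins that fold newly made secretory and membrane proteins inside the endoplasmic reticulum (ER). The genes described here are 10 that were chosen by name for their known roles: Hspa5, Hsp90b1, Calr, Canx, Pdia3, Pdia4, Pdia6, Dnajb9, Xbp1 and Manf. Earlier results of these data were known when they were chosen. They are 10 of the 39210 genes in the deposited table, and all 10 passed the filter on low counts. The name covers most of the set, since Xbp1 encodes a transcription factor that switches such genes on. Expression was measured by strand-specific mRNA sequencing of frozen ventricles from C57BL/6 mice. The 12 libraries formed 4 groups of 3, namely males in hypoxia, males in normoxia, females in hypoxia and females in normoxia. For the hypoxia groups the oxygen of the chamber was lowered in daily steps of 1% over 14 days until it reached 7%, where it stayed for 2 weeks. The normoxia groups breathed room air with 20.9% oxygen for 4 weeks. The labels give no genotype, drug or age and do not say which ventricle was taken. Nor do they say whether each library is 1 animal, so a p-value here weighs a difference against the spread between libraries, part of which may be technical.

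When unfolded proteins build up in the ER, the chaperone Hspa5 (also called BiP) leaves the stress sensors Ern1, Eif2ak3 and Atf6, and the unfolded protein response begins. Ern1 splices the Xbp1 mRNA into a form that encodes an active factor, Atf6 is cut to release a factor, and Eif2ak3 slows translation. In cultured mammalian cells the factors of this response bind ER stress response elements in promoters and raise the chaperone genes together, and in the heart the same genes serve the folding of ion channels, receptors and secreted matrix proteins.

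The ER stress response element was searched for because it is the promoter letter pattern for which chaperone genes are best known. Promoter windows came from RefSeq (build GRCm38.p6) and ran from 250 bases before to 50 bases after each annotated start. A window was found for 9 of the 10 genes, all but Manf. The pattern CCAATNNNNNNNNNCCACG, read on both strands, was in 39 of 32851 windows (0.119%). It was in 5 of the 9 matched genes, with 6 matches in all, since Hsp90b1 held a pair. The matches are printed below with 12 bases on each side, in the orientation of the pattern and with its fixed letters in capitals. The capitals are the same in all matches because the search required them, while the spacer of 9 bases was free to vary.
Hspa5, chr2:34772013-34772055, + strand: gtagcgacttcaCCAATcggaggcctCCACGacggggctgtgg
Hsp90b1 upstream match, chr10:86705626-86705668, - strand: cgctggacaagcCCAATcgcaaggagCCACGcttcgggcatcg
Hsp90b1 downstream match, chr10:86705521-86705563, + strand: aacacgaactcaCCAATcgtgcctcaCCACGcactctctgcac
Calr, chr8:84847063-84847105, + strand: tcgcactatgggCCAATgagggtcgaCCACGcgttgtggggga
Canx, chr11:50325788-50325830, - strand: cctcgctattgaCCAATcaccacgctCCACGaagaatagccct
Pdia6, chr12:17266479-17266521, + strand: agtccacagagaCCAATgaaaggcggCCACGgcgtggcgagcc

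The match in Hspa5 ended 47 bases before the start, and the match in Pdia6 ended 80 bases before it. Farther upstream, the match in Canx began at -145, and that in Calr began at -162 on the strand opposite to the gene. The pair in Hsp90b1 began at -212 in the orientation of the gene and at -107 in the opposite one. These exact letters were not in the windows of Pdia3, Pdia4, Dnajb9 and Xbp1. Bases after the start were looked for in the transcripts of each matched gene and found for all but Pdia4. The placing of the Pdia4 window is therefore unsure. A related pattern, ATTGGNCCACG, was in 0.0365% of all windows, and the core of the element bound by Xbp1, TGACGTGG, was in 0.676%. Neither was in a matched window of the 10 genes. All 3 patterns share the letters CCACG, which TGACGTGG holds on its other strand.

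**Figure D1:**
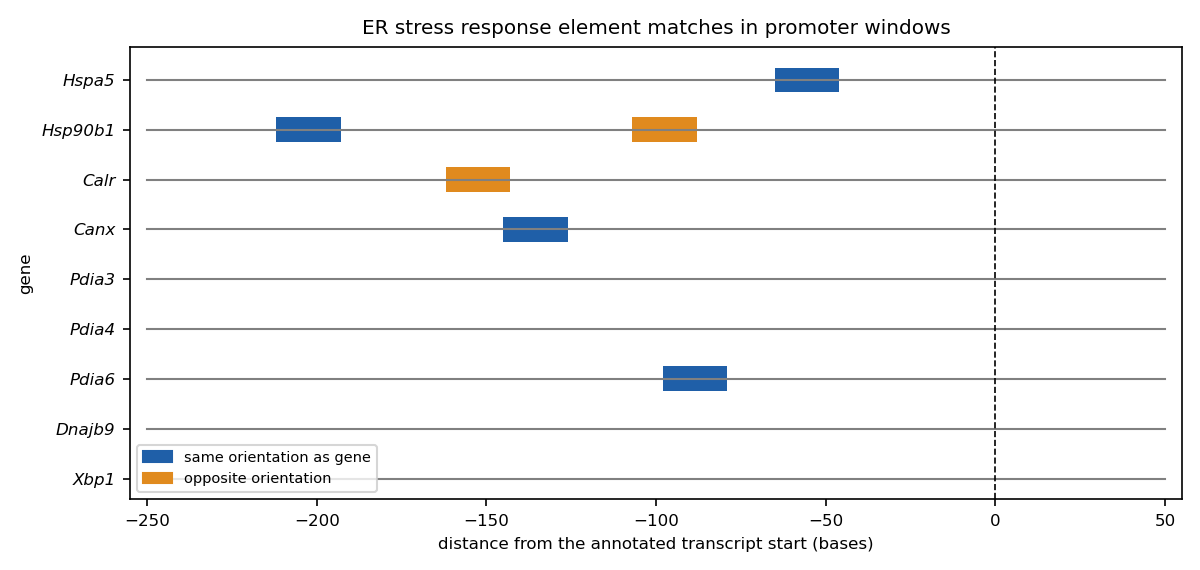
Positions of the ER stress response element in the promoter windows of the 9 matched genes, in bases from the annotated start (dashed line), with blue bars for the orientation of the gene and orange bars for the opposite one. Hspa5, Hsp90b1, Calr, Canx and Pdia6 hold a match, all of them upstream of the start, and Pdia3, Pdia4, Dnajb9 and Xbp1 hold none. The placing of the Pdia4 window is unsure.

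The 250 bases before the start of Hspa5 (chr2:34771840-34772089, + strand), the best studied promoter of this response, are shown with the exact match in capitals. Copies of the element that differ from the exact letters were not searched for and are not marked.
Hspa5 upstream: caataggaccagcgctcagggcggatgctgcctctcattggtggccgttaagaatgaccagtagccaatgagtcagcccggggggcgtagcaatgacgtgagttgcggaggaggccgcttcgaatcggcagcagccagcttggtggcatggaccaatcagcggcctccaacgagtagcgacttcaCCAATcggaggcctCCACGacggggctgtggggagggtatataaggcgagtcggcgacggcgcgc

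All 10 genes were expressed in every library. Abundance between genes was compared in deposited TPM, a unit scaled by transcript length and library. Hspa5 had the highest mean, 189 TPM over the 12 libraries (range 128 to 271). Hspa5 overlapped the genes after it only at the lower end of its range. Next came Calr with 107 TPM (74.6 to 148) and Hsp90b1 with 96.7 TPM (65.0 to 132), whose ranges overlapped over most of their length. Canx, Manf and Pdia3 followed with means of 48.6, 48.0 and 46.0 TPM, and their ranges overlapped so far that no order can be read among them. Pdia6 had 35.6 TPM (26.0 to 50.6) and Xbp1 27.4 TPM (16.3 to 40.2), again with overlapping ranges. The lowest were Dnajb9 with 11.8 TPM (7.92 to 17.3) and Pdia4 with 10.7 TPM (5.43 to 23.5), and these overlapped as well. The estimated counts behind these levels ran from 8094 to 16448 per library for Hspa5 and from 345 to 1420 for Pdia4. Those of Hsp90b1, Pdia3, Dnajb9 and Xbp1 were not whole in some libraries.

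**Figure D2:**
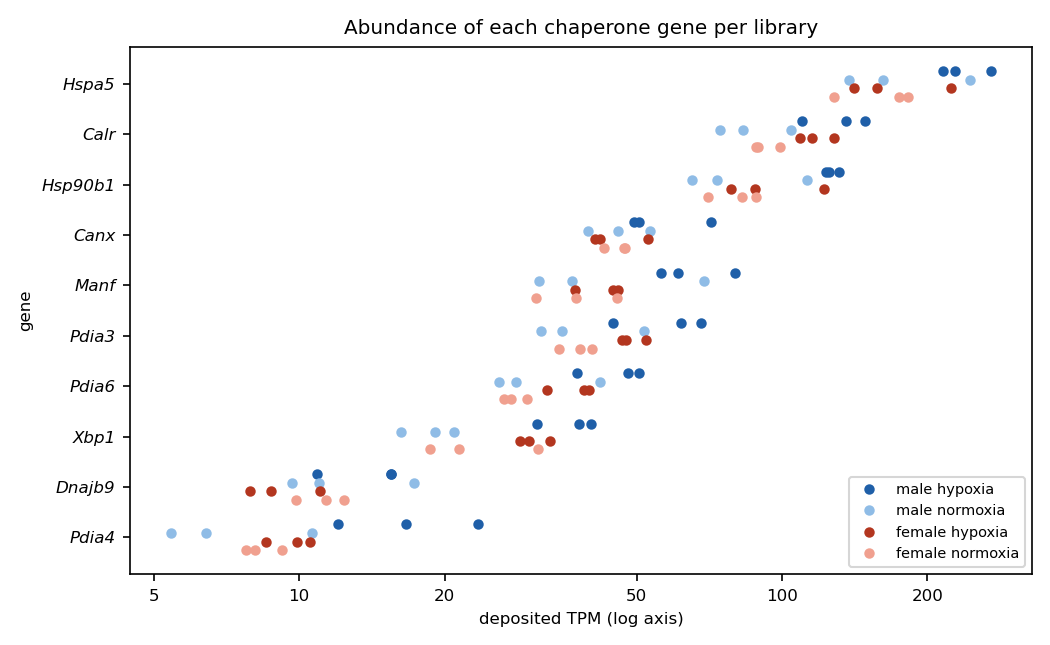
Deposited TPM (log axis) of each gene in each of the 12 libraries, with genes ordered by their mean and 4 rows of points per gene for male hypoxia, male normoxia, female hypoxia and female normoxia. Hspa5 lies between 128 and 271 TPM, and Pdia4, the lowest, between 5.43 and 23.5 TPM.

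Between groups, levels were compared in CPM (each gene's count as a share of the library, scaled here by TMM factors), with edgeR's quasi-likelihood test fitted to all 13960 genes that passed the filter. Hypoxia, averaged over the sexes, moved none of the 10 genes past an adjusted p of 0.05, while 27.9% of all genes tested passed, 15.0% higher and 12.9% lower. At an unadjusted p under 0.05 the count was 1 of 10, Dnajb9 (40.7% of all genes tested), and by DESeq2's adjusted p it was 0 (31.7%). The median log2 fold change of the 10 genes was 0.08, beside -0.01 over all genes tested, and 6 of them were above 0. With 1 library left out at a time the count above 0 ran from 5 to 8, and the median was 0.25 without the first male normoxia library and -0.01 without the second. The fitted values ran from -0.38 for Dnajb9 to 0.40 for Pdia4.

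The general chaperones and their partners come first. Hspa5 (ENSMUSG00000026864), an Hsp70-type chaperone that holds unfolded chains, had 723, 630.1 and 839 CPM in male hypoxia libraries, against 1020.1, 611 and 582 CPM in male normoxia libraries. In female hypoxia libraries it had 772, 453 and 507 CPM, against 521, 689 and 689 CPM in female normoxia libraries. In both sexes the groups overlapped, because the first male normoxia library was the highest of all 12 and the first female hypoxia library stood above every female normoxia library while the other 2 stood below. The averaged log2 fold change was -0.07 ± 0.18 (SE; 95% interval -0.46 to 0.31, adjusted p = 0.782 by edgeR), and 0.08 without the first male normoxia library.

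Hsp90b1 (ENSMUSG00000020048), the Hsp90-type chaperone of the ER, had 353, 381 and 470.4 CPM in male hypoxia libraries, against 546, 318 and 310.4 CPM in male normoxia libraries. Its levels were 384, 285 and 298 CPM in female hypoxia libraries and 308, 352 and 372 CPM in female normoxia libraries. As for Hspa5, the first male normoxia library was the highest of all 12 and the groups of each sex overlapped. The averaged log2 fold change was -0.03 ± 0.15 (95% interval -0.36 to 0.30, edgeR adjusted p = 0.909). It was 0.13 without the first male normoxia library and 0.01 without the first male hypoxia or the second female hypoxia library.

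Dnajb9 (ENSMUSG00000014905), a J-domain partner of Hspa5 that is also known to act on the sensor Ern1, was the one gene with an unadjusted p under 0.05. It had 37.9, 42.5 and 49.3 CPM in male hypoxia libraries, against 73.5, 43.4 and 41.0 CPM in male normoxia libraries. Female hypoxia libraries gave 39.2, 26.0 and 26.6 CPM, against 37.4, 42.1 and 48.5 CPM in female normoxia libraries. The second and the third female hypoxia libraries were the lowest of the 12, and the first of that group lay within the range of the normoxia libraries. The averaged log2 fold change was -0.38 ± 0.16 (95% interval -0.74 to -0.03, edgeR adjusted p = 0.101). With the first female hypoxia library left out it was -0.48 and passed (edgeR adjusted p = 0.0373), and without the first male normoxia library it was -0.22 (edgeR adjusted p = 0.231).

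Manf (ENSMUSG00000032575), a small secreted protein that is kept in the ER by Hspa5, had 64.0, 57.5 and 85.6 CPM in male hypoxia libraries and 101, 42.6 and 53.0 CPM in male normoxia libraries. It had 55.4, 40.9 and 44.6 CPM in female hypoxia libraries and 39.7, 44.7 and 58.4 CPM in female normoxia libraries. The groups of each sex overlapped, and the averaged log2 fold change was 0.03 ± 0.20 (95% interval -0.42 to 0.47, edgeR adjusted p = 0.933). With 1 library left out at a time it lay between -0.09, without the second male normoxia library, and 0.26, without the first, and it was below 0 in 5 of these 12 fits.

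The lectin chaperones bind the sugar chains of glycoproteins. Calr (ENSMUSG00000003814), the soluble one, averaged 291 ± 33.7 CPM in male hypoxia and 259 ± 50.3 CPM in male normoxia (SD, n = 3 each). In females it averaged 266 ± 18.4 CPM in hypoxia and 241 ± 13.0 CPM in normoxia. Canx (ENSMUSG00000020368), the membrane-bound one, averaged 214 ± 8.63 CPM in male hypoxia and 241 ± 34.4 CPM in male normoxia, and 195 ± 30.2 CPM in female hypoxia and 221 ± 5.12 CPM in female normoxia. The pair thus had fitted values of opposite sign, 0.15 ± 0.10 for Calr (edgeR adjusted p = 0.257) and -0.18 ± 0.09 for Canx (edgeR adjusted p = 0.160), and neither passed. With the first female hypoxia library left out, Canx was at -0.24 and passed (edgeR adjusted p = 0.0365).

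The protein disulfide isomerases form and rearrange disulfide bonds. Pdia3 (ENSMUSG00000027248), which works with Calr and Canx on glycoproteins, had 154, 188 and 213 CPM in male hypoxia libraries and 202, 135 and 139.8 CPM in male normoxia libraries. It had 158, 157 and 166 CPM in female hypoxia libraries and 145, 157 and 147 CPM in female normoxia libraries. In females every hypoxia library was above every normoxia library, by margins that are small beside the fitted error (log2 0.10 ± 0.16, edgeR adjusted p = 0.733), and 25.9% of all genes tested separated the female groups in this way, 13.2% with hypoxia higher. Pdia6 (ENSMUSG00000020571), which acts in a complex with Hspa5, averaged 119 ± 16.1 CPM in male hypoxia and 113 ± 33.2 CPM in male normoxia, and 101 ± 12.4 CPM in female hypoxia and 88.7 ± 4.20 CPM in female normoxia. The averaged log2 fold changes were 0.16 ± 0.11 for Pdia3 (edgeR adjusted p = 0.302) and 0.13 ± 0.13 for Pdia6 (edgeR adjusted p = 0.481).

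Pdia4 (ENSMUSG00000025823), another disulfide isomerase, had the widest spread of the set, 3.24-fold between its highest and lowest library. It had 40.8, 44.3 and 72.4 CPM in male hypoxia libraries, against 43.9, 24.5 and 22.3 CPM in male normoxia libraries. The third male hypoxia library was the highest of the 12, and the first male normoxia library reached the lower end of the hypoxia values. Female hypoxia libraries had 34.2, 27.3 and 31.2 CPM and female normoxia libraries 28.7, 33.2 and 30.8 CPM, nearly the same range. Averaged over the sexes, the log2 fold change was 0.40 ± 0.18 (95% interval -0.00 to 0.80, edgeR adjusted p = 0.126), and it was 0.58 and passed without the first male normoxia library (edgeR adjusted p = 0.0213).

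Xbp1 (ENSMUSG00000020484), the transcription factor, had 81.2, 75.6 and 95.7 CPM in male hypoxia libraries, against 72.5, 50.3 and 63.7 CPM in male normoxia libraries. It had 74.8, 72.8 and 75.7 CPM in female hypoxia libraries, against 54.7, 59.0 and 89.9 CPM in female normoxia libraries. In males every hypoxia library was above every normoxia library, and in females the third normoxia library was above all 3 hypoxia libraries. That library also held the highest summed level of 8 immediate early genes, 749.5 CPM, and the part of this in its Xbp1 level was not tested. Averaged over the sexes, hypoxia over normoxia was 0.28 ± 0.13 on the log2 scale (edgeR adjusted p = 0.125), and with that library left out it was 0.41 and passed (edgeR adjusted p = 0.0104). Gene-level counts do not separate the spliced from the unspliced Xbp1 mRNA.

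**Figure D3:**
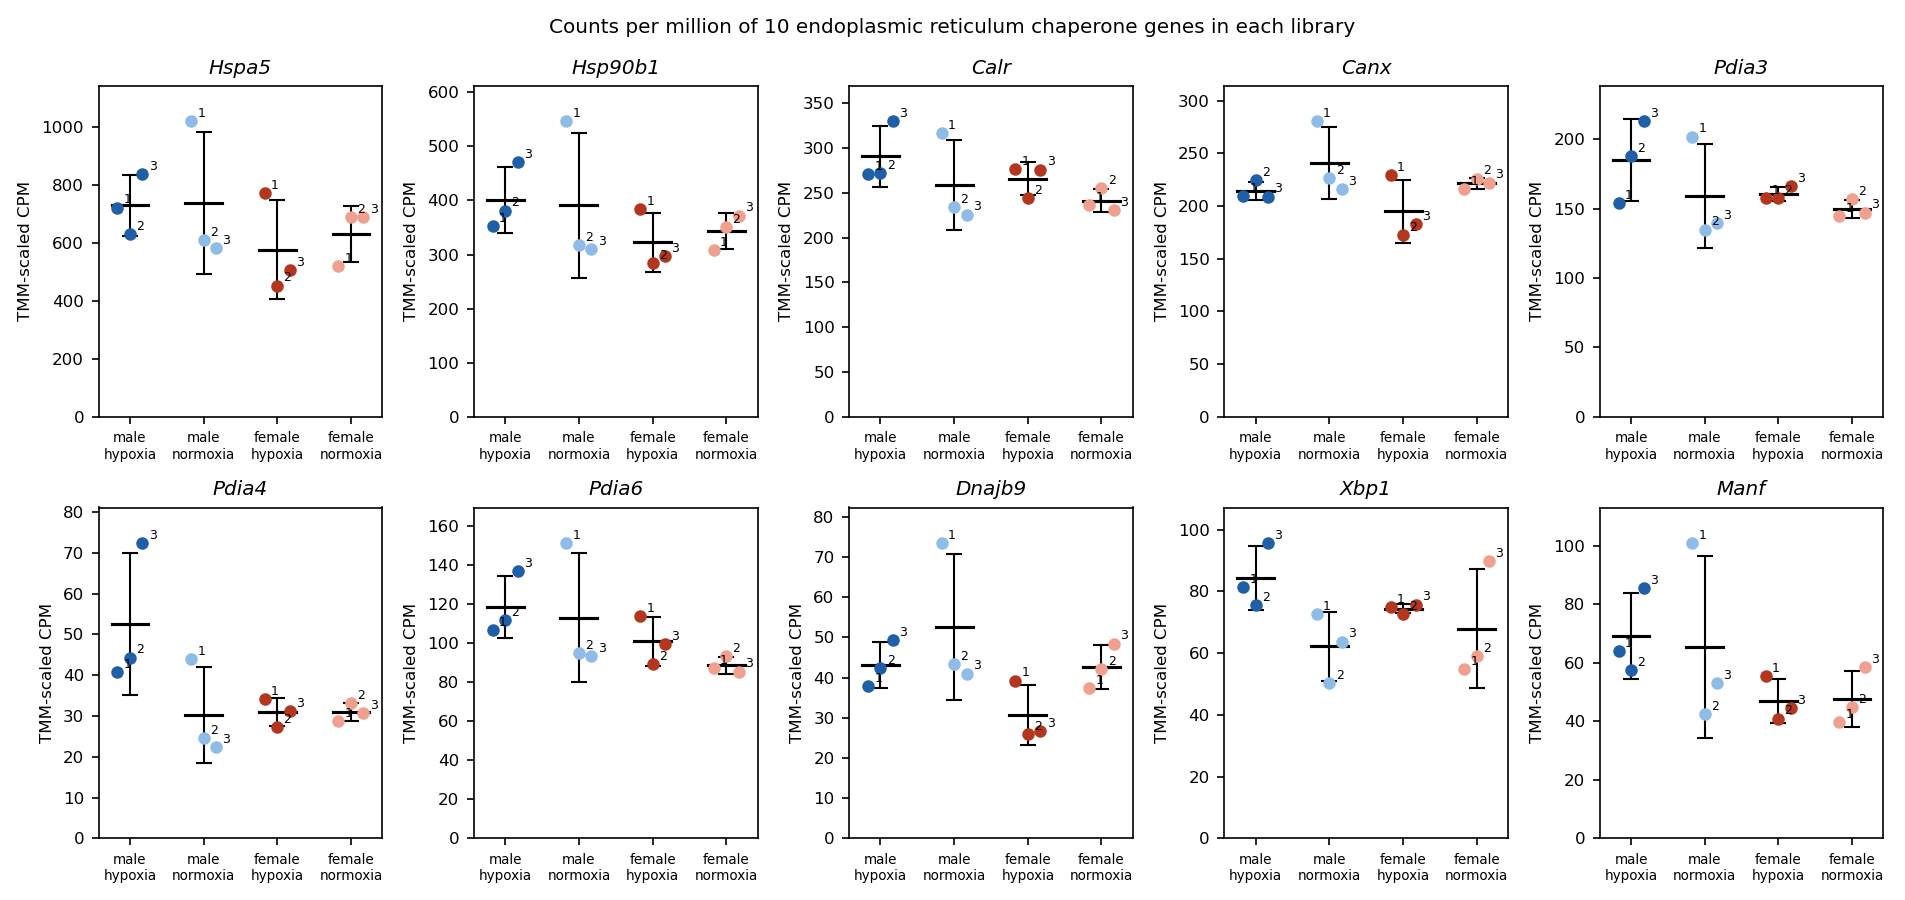
TMM-scaled CPM of each gene in each library (numbered points, linear axes from 0), with horizontal lines for the mean and whiskers for the SD of the 3 libraries of male hypoxia, male normoxia, female hypoxia and female normoxia, from left to right. The first male normoxia library is the highest point of its group in all 10 panels, and in males the hypoxia points of Xbp1 alone lie wholly above the normoxia points.

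Within males the same contrast put 0 of 10 genes past the threshold, with 15.6% of all genes tested as background. At an unadjusted p under 0.05 there were 2, Pdia4 and Xbp1 (32.6% of all genes tested). By DESeq2 1 passed, Pdia4 (log2 0.79, DESeq2 adjusted p = 0.0206), and 20.8% of all genes tested did. For Pdia4 the male means were 52.5 ± 17.3 CPM in hypoxia and 30.3 ± 11.9 CPM in normoxia (SD, n = 3 each), a log2 fold change of 0.80 ± 0.26 (95% interval 0.23 to 1.37, edgeR adjusted p = 0.0598). For Xbp1 the male means were 84.2 ± 10.4 CPM in hypoxia and 62.2 ± 11.2 CPM in normoxia, a log2 fold change of 0.44 ± 0.19 (edgeR adjusted p = 0.127). Xbp1 was the 1 gene of the 10 whose male groups did not overlap, whereas 41.3% of all genes tested had male groups that did not overlap, 21.5% with hypoxia higher. The male value of Pdia4 depended on single libraries: it was at 1.16 and passed without the first male normoxia library (edgeR adjusted p = 0.0245) and at 0.49 without the third male hypoxia library (edgeR adjusted p = 0.233). It also passed with the first male hypoxia library left out, at 0.95 (edgeR adjusted p = 0.0442), and Xbp1 passed, at 0.44, in the fit without the third female normoxia library (edgeR adjusted p = 0.0374).

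Within females 0 of 10 genes passed, against 5.99% of all genes tested, and 0 had an unadjusted p under 0.05 (24.7% of all genes) or passed by DESeq2 (12.1%). The female log2 fold changes ran from -0.48 for Dnajb9 to 0.19 for Pdia6, with a median of -0.01 beside -0.02 over all genes. Pdia4, with the largest male value, was at 0.00 ± 0.26 in females (means 30.9 ± 3.45 CPM in hypoxia and 30.9 ± 2.22 CPM in normoxia). The difference between the sexes was tested directly as the female effect minus the male effect. For Pdia4 it was -0.80 ± 0.37 (95% interval -1.60 to 0.01, edgeR adjusted p = 0.730). None of the 10 genes passed that test, and over all genes tested 0.00716% did. None had an unadjusted p under 0.05 (6.79% of all genes) or passed by DESeq2 (0.487%).

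**Figure D4:**
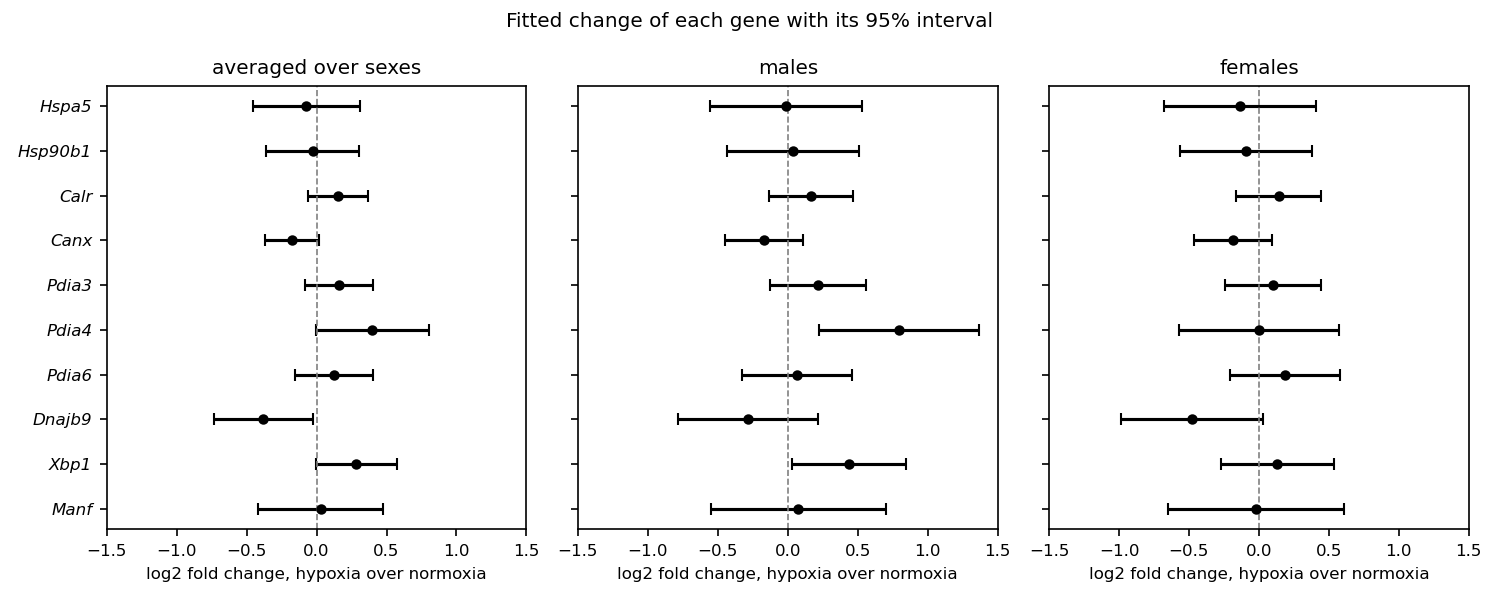
Fitted log2 fold change of hypoxia over normoxia (points) with its 95% interval (whiskers) for each gene, averaged over the sexes, in males and in females. The averaged interval of Dnajb9 lies just below 0 (-0.74 to -0.03), the male intervals of Pdia4 (0.23 to 1.37) and Xbp1 (0.03 to 0.84) lie above 0, and all others span it.

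Females and males were also set against each other at each oxygen level. In hypoxia all 10 fitted log2 differences, female over male, were below 0, with a median of -0.28 and a range of -0.76 to -0.13, beside a median of -0.00 over all genes tested. The median was -0.17 without the third male hypoxia library, where Pdia4 was at -0.46. None passed (background 0.150%), 1 had an unadjusted p under 0.05 (9.63% of all genes) and 0 passed by DESeq2 (1.32%). That gene was Pdia4, with 30.9 ± 3.45 CPM in female hypoxia and 52.5 ± 17.3 CPM in male hypoxia (log2 -0.76 ± 0.26, edgeR adjusted p = 0.344). Pdia4 and Manf were the 2 genes whose female hypoxia libraries all lay below the male hypoxia libraries, and 15.5% of all genes tested separated, 8.14% in that direction. In normoxia 8 of 10 differences were below 0, with a median of -0.15. The first male normoxia library set that direction, since without it 8 of 10 were above 0 and the median was 0.08. Without the second male normoxia library all 10 were below 0 (median -0.25), and without the third 9 were (median -0.26). Again 0 passed (background 0.0716%), with 0 at an unadjusted p under 0.05 (7.29% of all genes) and 0 by DESeq2 (0.415%), and the groups overlapped for all 10, while 13.9% of all genes tested had groups that did not. The sign shared by the 10 genes is not 10 separate observations, because the genes moved together from library to library, as described next.

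Within a group the 10 genes tended to be high or low in the same library. Their summed level was 2808 CPM in the first male normoxia library, against 1779 and 1748 CPM in the other two. That library was the highest of its group for all 10 genes, whereas it was so for 32.1% of all genes tested. Its ratio to the mean of the other two had a median of 1.66 over the 10 genes and ran from 1.27 for Canx to 2.11 for Manf. For 6 of the 10 the ratio was above 1.5, which held for 3.21% of all genes compared. Of 12 marker lists, its sum was the highest of the group for 2, the fibroblast list (868 CPM, against 842 and 824 CPM in the other two) and, by a narrow margin, the atrial list (147.85 CPM, against 92.4 and 147.80 CPM). Its immediate early genes summed to 60.9 CPM, against 46.9 and 118 CPM, and its macrophage markers to 324 CPM, against 365 and 274 CPM. Plasma cell markers summed to 17.2 CPM in it, against 20.5 and 20.5 CPM.

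The other groups showed the same kind of shared variation. The summed level was 2041, 2027 and 2501 CPM in the male hypoxia libraries, and the third was the highest of its group for 9 of the 10 genes (35.0% of all genes tested), with Canx as the exception. In female hypoxia the sums were 2138, 1569 and 1708 CPM. The second of these libraries was the lowest of its group for all 10 genes (28.2% of all genes tested), and the first was the highest for 8 (40.0%). In female normoxia the sums were 1674, 1951 and 1974 CPM, and the first library was the lowest for 8 of the 10 (28.2%). Of the 12 libraries, the first male normoxia one was the highest for 6 genes and the third male hypoxia one for the other 4. Membership in a treatment group thus did not order the sums in TMM-scaled CPM, where the highest belonged to a normoxia library and the lowest to a hypoxia library. This depends on the unit. In deposited TPM the highest sum, 872, was in the third male hypoxia library and the lowest, 445, in the third male normoxia library. The first male normoxia library summed to 727 TPM.

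The size of this spread differed between genes. Over the 4 groups the pooled SD of log2 CPM within groups was 0.40 for Manf, 0.36 for Pdia4 and 0.34 for Hspa5, at percentiles 76.0, 71.6 and 69.6 of all genes tested. It was 0.15 for Canx and 0.17 for Calr, at percentiles 25.5 and 32.2. The median over all genes tested was 0.23. The least certain fold changes therefore belonged to Manf, Pdia4 and Hspa5, and the tightest intervals to the lectin chaperones.

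Other genes were ranked by how close their profile over the 12 libraries lay to the mean profile of the 10. Each profile was the log2 CPM standardised over the libraries, closeness was the root mean square difference, and 8563 genes averaging 3 or more in log2 CPM were ranked. The 5 nearest outside the set were Sdf2l1 (distance 0.283), Hyou1 (0.391), Creld2 (0.410), Dnajb11 (0.452) and Vps26c (0.460). The first 4 encode ER-resident proteins: Sdf2l1 and Dnajb11 work with Hspa5, Hyou1 is its nucleotide exchange factor, and Creld2 is an ER stress-inducible protein. Vps26c encodes a subunit of an endosomal sorting complex. Within the set, Hsp90b1 lay closest to the common profile (0.239) and Xbp1 farthest (0.836), behind Canx (0.780).

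Sdf2l1 showed the shared pattern at its widest. It had 11.2, 11.8 and 22.6 CPM in male hypoxia libraries, against 18.6, 6.64 and 6.35 CPM in male normoxia libraries. In female hypoxia libraries it had 10.5, 5.26 and 6.19 CPM, against 6.25, 6.67 and 7.34 CPM in female normoxia libraries. The high libraries were the third male hypoxia, the first male normoxia and, in females, the first hypoxia library. Its averaged log2 fold change was 0.32 ± 0.30 (edgeR adjusted p = 0.453), and none of the 5 nearest genes passed in the averaged contrast. Since these genes were picked for their likeness to the 10 in the same libraries, neither the shared high libraries nor the lack of calls is a separate observation. Of these 5, a promoter window was found for all but Hyou1. That of Dnajb11 held the related pattern ATTGGNCCACG, 7 to 17 bases after the start. The ER stress response element was in that of Creld2 (chr15:88819508-88819550, - strand), shown for comparison with those of the chaperone genes.
Creld2: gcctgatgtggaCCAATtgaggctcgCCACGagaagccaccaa

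**Figure D5:**
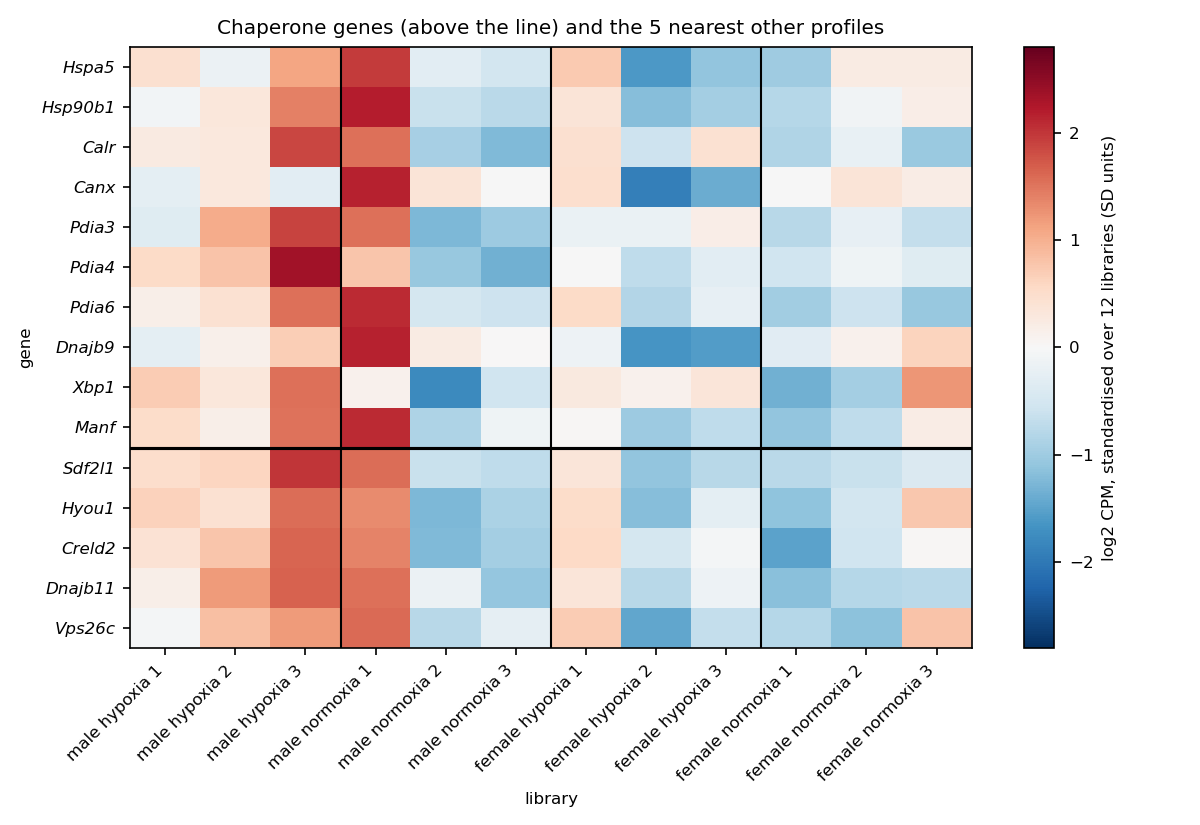
Log2 CPM of the 10 chaperone genes (above the line) and the 5 nearest other genes, each standardised over the 12 libraries (red above and blue below the gene's own mean, in SD units). The first male normoxia column and the third male hypoxia column are red for nearly all rows, and the second female hypoxia column is blue for most.

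Facts of the libraries that bear on these values were as follows. Totals ran from 14915800 to 19397900 estimated counts. Cardiomyocyte markers were high throughout, with all 8 tested and summed levels of 40320.3 to 62274 CPM in hypoxia libraries and 52674 to 61992 CPM in normoxia libraries. In the averaged contrast 2 of these 8 were lower in hypoxia and 0 higher, with a median log2 fold change of -0.24. The share of all genes tested that were lower was 12.9%. Atrial markers (5 of 7 tested) summed to 516 to 1733 CPM in male hypoxia, 92.4 to 148 CPM in male normoxia, 204 to 1072 CPM in female hypoxia and 132 to 273 CPM in female normoxia. Of these, Nppa reached 1512 CPM and no other marker exceeded 91.8 CPM. As mean log2 CPM, atrial markers were at 6.47 and 6.04 in the second and the third male hypoxia libraries and at most 3.70 elsewhere. Adipocyte markers (3 of 8 tested) were at 5.16 and 4.85 there and at most 2.67 elsewhere. These libraries are left out together in fits below, and the part of such tissue in the Pdia4 values was not tested. Activated fibroblast markers (7 of 7 tested) summed to 386 to 806 CPM in male hypoxia, 139.9 to 170.3 CPM in male normoxia, 305 to 775 CPM in female hypoxia and 125 to 296 CPM in female normoxia. Endothelial markers (8 of 8 tested, 7 higher in hypoxia in the averaged contrast) summed to 1203 to 1522 CPM in male hypoxia, 824 to 1002 CPM in male normoxia, 1229.7 to 1605 CPM in female hypoxia and 935 to 1119.7 CPM in female normoxia. In the same contrast 5 of 6 erythroid, 4 of 7 smooth muscle and pericyte and 4 of 8 macrophage markers tested were higher. Of all genes tested 15.0% were higher in it. Plasma cell markers (5 of 8 tested) summed to at most 22.0 CPM in any library, and Jchain never exceeded 0.355 CPM. In bulk tissue fewer cells of a type and less RNA per cell cannot be told apart. Leaving out the second and the third male hypoxia libraries keeps 1 library in that group, so only fitted values are given for single genes. Pdia4 was then at 0.43 in males and 0.22 averaged. With the third female normoxia library left out as well, Xbp1 was at 0.39 averaged.

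The unit of the values also mattered. The deposited TPM values put the middle of all genes higher in hypoxia, by a median log2 of 0.19 in the averaged contrast at a pseudocount of 1. On log2(TPM + 1), limma called 6 of the 10 genes higher in hypoxia in the averaged contrast, namely Hsp90b1, Calr, Pdia3, Pdia4, Pdia6 and Xbp1, and 5 in males. The shares of all genes called higher on that scale were 31.5% averaged and 25.1% in males. Over all genes, that scale called 4395 higher and 284 lower in the averaged contrast, where the counts called 2100 higher and 1796 lower. In males it called 3497 higher and 151 lower, where the counts called 1183 and 991, and in females 528 and 32, where the counts called 554 and 282. Relative to the median shift these 6 lay between 0.24 for Hsp90b1 and 0.46 for Pdia4. The share of mitochondrially encoded counts was 15.8% to 23.1% in hypoxia libraries and 24.5% to 29.3% in normoxia libraries, and its part in the shift was not tested.

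The chaperones work beside many other ER proteins, and lists of ER folding genes were counted in the averaged contrast, in which 15.0% of all genes tested were higher and 12.9% lower. Of 17 further ER chaperones and co-chaperones, 3 rose and 1 fell, with a median log2 fold change of 0.17. Dnajc3, a J-domain partner of Hspa5 that also restrains Eif2ak3, rose by 0.37 ± 0.12 (edgeR adjusted p = 0.0370). It had 72.5, 66.3 and 75.1 CPM in male hypoxia libraries, against 52.9, 41.1 and 44.0 CPM in male normoxia libraries, and the male groups did not overlap. Such a lack of overlap held for 41.3% of all genes tested, 21.5% with hypoxia higher. Cnpy4 rose by 0.75 ± 0.14 (edgeR adjusted p = 0.00323) and the membrane J-protein gene Dnajc1 by 0.24 ± 0.08 (edgeR adjusted p = 0.0412). Cdnf, the closest relative of Manf, fell by 0.60 on the log2 scale (SE 0.12, edgeR adjusted p = 0.00511). It averaged 14.6 ± 1.63 CPM in male hypoxia and 23.8 ± 0.979 CPM in male normoxia, and 14.0 ± 3.83 CPM in female hypoxia and 19.7 ± 2.50 CPM in female normoxia (SD, n = 3 each). Cnpy4 and Cdnf passed with each of the 12 libraries left out in turn, and Dnajc3 and Dnajc1 with 2 of the 12. With the second and the third male hypoxia libraries left out, the values were 0.39 for Dnajc3, 0.25 for Dnajc1, 0.53 for Cnpy4 and -0.51 for Cdnf. With the third female normoxia library left out as well, they were 0.51, 0.31, 0.51 and -0.56 in the same order. In the female contrast with all libraries 0 of the 17 passed, beside 5.99% of all genes tested.

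Of 15 tested disulfide isomerases and oxidases outside the set, 3 rose and 0 fell, with a median of 0.13. P4hb, a disulfide isomerase that is also a subunit of the collagen prolyl hydroxylase, had 285, 288 and 289.7 CPM in male hypoxia libraries, against 227, 190.2 and 190.0 CPM in male normoxia libraries. Its female levels were 243, 224 and 249 CPM in hypoxia libraries and 184, 199 and 223 CPM in normoxia libraries. Every hypoxia library of a sex was above every normoxia library of that sex, and the averaged log2 fold change was 0.37 ± 0.07 (edgeR adjusted p = 0.00424). Of all genes tested, 21.5% separated in this direction in males and 13.2% in females. Pdia5 rose by 0.70 ± 0.15 (edgeR adjusted p = 0.00716) and the sulfhydryl oxidase gene Qsox1 by 0.61 ± 0.18 (edgeR adjusted p = 0.0258). Txndc5, at 0.26 ± 0.10, did not pass (edgeR adjusted p = 0.0659). P4hb and Pdia5 passed with each of the 12 libraries left out in turn and Qsox1 with 4 of the 12. Without the second and the third male hypoxia libraries P4hb was at 0.37, Pdia5 at 0.67 and Qsox1 at 0.48. With the third female normoxia library left out as well, the values were 0.40, 0.59 and 0.70 in the same order. The summed activated fibroblast markers were also higher in hypoxia in each sex, at the levels given above, and their part was not tested.

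Of 16 sensors and transcription factors of the unfolded protein response, 7 rose and 0 fell, with a median of 0.19. The sensors Ern1, Eif2ak3 and Atf6 were not among them, while Atf6b, a relative of Atf6, was. Ern1 was at 0.10 ± 0.13 (edgeR adjusted p = 0.589), Eif2ak3 at 0.22 ± 0.10 (edgeR adjusted p = 0.110) and Atf6 at 0.15 ± 0.15 (edgeR adjusted p = 0.489). The largest rise was that of Creb3l1, an ER-anchored factor known for its role in collagen secretion. It had 6.36, 6.43 and 7.60 CPM in male hypoxia libraries, against 3.33, 3.10 and 3.50 CPM in male normoxia libraries. Its female levels were 7.46, 8.82 and 9.00 CPM in hypoxia libraries and 4.38, 4.04 and 3.39 CPM in normoxia libraries. Every hypoxia library was above every normoxia library, and the averaged log2 fold change was 1.07 ± 0.11 (edgeR adjusted p = 0.000296). Within a sex, hypoxia lay wholly higher for 21.5% of all genes tested in males and 13.2% in females. Nfya, a subunit of the factor that binds the CCAAT part of the ER stress response element, rose by 0.36 ± 0.08 (edgeR adjusted p = 0.00786). Ppp1r15b, which restores translation, rose by 0.41 ± 0.11 (edgeR adjusted p = 0.0146), and Ddit3, a stress-induced factor downstream of Eif2ak3, by 0.47 ± 0.13 (edgeR adjusted p = 0.0233). With average length offsets 4 of the 16 rose, and without a filter on low counts 6 did. With 1 library left out at a time, 3 to 7 of the 16 rose, with 3 without the third male hypoxia library. Creb3l1, Nfya and Ppp1r15b passed in all 12 of these fits and Ddit3 in 10. The other genes that rose, Atf6b, Atf4 and Creb3l2, passed in 2, 3 and 6 of the 12. Without the second and the third male hypoxia libraries the values were 1.02 for Creb3l1, 0.39 for Nfya, 0.59 for Ddit3 and 0.39 for Ppp1r15b. For Atf6b, Atf4 and Creb3l2 they were 0.15, 0.61 and 0.20. In the averaged contrast 6 of 7 activated fibroblast, 5 of 8 fibroblast and 4 of 5 atrial markers tested were higher in hypoxia, beside the endothelial, erythroid, smooth muscle and macrophage markers given above. In females 3 activated fibroblast markers, 0 fibroblast markers and 0 atrial markers passed, beside 5.99% of all genes tested. The part of any of these in the rises was not tested.

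Of 13 genes of the calnexin cycle and glycan trimming, which feed glycoproteins to Calr and Canx, 1 rose and 1 fell, with a median of 0.04. Stt3b, a catalytic subunit of the oligosaccharyltransferase, rose by 0.17 ± 0.05 (edgeR adjusted p = 0.0258). Lman1, a lectin that carries glycoproteins out of the ER, fell by 0.32 on the log2 scale (SE 0.09, edgeR adjusted p = 0.0249). Stt3a, at 0.26 ± 0.09, and Mogs, at 0.24 ± 0.09, did not pass (edgeR adjusted p = 0.050004 and 0.0757). With 1 library left out at a time Lman1 passed in 7 of 12 fits and Stt3b in 6. Without the second and the third male hypoxia libraries Lman1 was at -0.28 and Stt3b at 0.16.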

How the data were processed

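Messenger RNA of frozen ventricles was sequenced in 12 libraries. Libraries were made with a directional kit per the labels' protocols, and FastQC, Salmon and build GRCm39 are named in the submitters' processing notes. Versions, annotation and the strand setting are not given in the sources used here, so reads of overlapping antisense genes may not be told apart. Per the file headers, the deposited table holds an estimated count, an abundance in TPM and an average effective length for each gene and library. Symbols came from a GRCm38 annotation, used for names alone (38941 of 39210 genes matched). The promoter windows are of build GRCm38.p6.

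Estimated counts were rounded, filtered with filterByExpr on the 4 groups (13960 genes left) and scaled by TMM. One mean per group was fitted over the 12 libraries (8 residual degrees of freedom) in edgeR 4.0.16 under R 4.3.3. Tests were two-sided quasi-likelihood F tests, adjusted by Benjamini-Hochberg over all genes tested, with a threshold of 0.05. The depth was 14915800 to 19397900 estimated counts per library. No 2 libraries of a group agreed within sampling noise. Alternatives used DESeq2 1.42.0, limma 3.58.1, other scalings, filters, length offsets, TPM and left-out libraries. The fits were tested on simulated data. The chaperone genes, the lists of other ER genes and the markers were chosen with earlier results of these data known. Named besides the chaperone genes were up to 4 genes of each list with the smallest averaged p, the sensors Ern1, Eif2ak3 and Atf6, and the 5 nearest profiles. The other genes of the unfolded protein response list that rose were named as well. The counts of lists and the calls of their genes under alternatives were added after the data were seen.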

Additional observations from a re-analysis of the deposited data

How the results depend on the processing

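Across 26 alternatives, 1393 of 1540 recomputed fold changes of the 10 genes kept their direction and their side of the threshold, 29 passed with the same sign, and 116 changed sign with neither value past it. Hsp90b1 in the averaged contrast reversed, to 0.44 (adjusted p = 0.0374) and 0.44 (adjusted p = 0.0372), under limma on log2(TPM + 1) and log2(TPM + 0.1), where the median of all genes was at 0.19 and 0.29. In both TPM fits 6 of the 10 genes passed in the averaged contrast and 5 in males, where the median of all genes was at 0.26 and 0.39. DESeq2 called 1 in males. Xbp1 was at 0.39 in the averaged contrast without the second and the third male hypoxia and the third female normoxia libraries. With each library left out in turn the count of the 10 genes that passed was 0 to 2 averaged, 0 to 1 in males and 0 in the other contrasts. Without the first male normoxia library the male median of the 10 genes was 0.35.

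Counts over all genes moved more. In males 2174 became 1265 with average length offsets, 3648 and 3737 in the TPM fits, 66 without the second and the third male hypoxia libraries and 176 without the third female normoxia library as well; the averaged 3896 became 1295 and 2329 in these last fits. In females 836 became 1693 by DESeq2, 362 with length offsets, 40 from the compared libraries alone and 457 without the second and the third male hypoxia libraries. The interaction's 1 became 68 by DESeq2, 2 by limma voom, 6 without a filter, 3 and 3 on TPM, and 7 and 6 without those libraries. Females against males gave 184 by DESeq2, 13 with length offsets, 12 from the compared libraries alone and 12 without the second and the third male hypoxia and the third female normoxia libraries in hypoxia, where 21 passed. In normoxia, where 10 passed, they gave 58 by DESeq2 and 6 from the compared libraries alone. With each library left out in turn, the ranges were 2685 to 4635 averaged, 877 to 3036 in males, 55 to 2081 in females, 1 to 5 for the interaction, 9 to 40 for the sexes in hypoxia and 5 to 10 in normoxia. Where 1 male hypoxia library was left, its spread was taken from the other groups. The cause of these moves was not tested.

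Fitting only the compared libraries does not apply to the averaged contrast and the interaction, which use all groups. The replicate block left 0 of the 10 genes past the threshold in every contrast and gave 6 genes in normoxia for females against males. Deviations of same-numbered libraries correlated at -0.0454 to 0.186. Differently numbered libraries were not compared in this way, so these values cannot settle whether the numbers pair the samples. With 3 libraries a group, where an interval given above spans 0, a difference inside it cannot be told from none.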

Other observations

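Other steps of protein handling in the ER were also counted in the averaged hypoxia contrast, in which 15.0% of all genes tested were higher and 12.9% lower. Of 8 peptidyl-prolyl isomerases of the ER, 3 rose and 0 fell. Fkbp14, which is known to act on collagen, had 16.2, 16.8 and 12.6 CPM in male hypoxia libraries, against 10.9, 9.14 and 11.7 CPM in male normoxia libraries. It had 14.0, 22.2 and 19.9 CPM in female hypoxia libraries, against 9.41, 12.4 and 6.66 CPM in female normoxia libraries, and the groups of each sex did not overlap. The shares of all genes tested with hypoxia wholly higher were 21.5% in males and 13.2% in females. The averaged log2 fold change was 0.75 ± 0.16 (edgeR adjusted p = 0.00679). Ppic rose by 0.72 ± 0.21 (edgeR adjusted p = 0.0258) and Ppib by 0.28 ± 0.09 (edgeR adjusted p = 0.0349), while Fkbp10 was at -0.23 ± 0.14 (edgeR adjusted p = 0.232). Fibroblast markers (8 of 8 tested) summed to 1255 to 1765 CPM in male hypoxia, 824 to 868 CPM in male normoxia, 825 to 1469.7 CPM in female hypoxia and 706 to 1040.1 CPM in female normoxia, and their part was not tested. Without the second and the third male hypoxia libraries the values were 0.80 for Fkbp14, 0.50 for Ppic and 0.26 for Ppib. Fkbp14 passed with each of the 12 libraries left out in turn. Ppic passed in 7 of these 12 fits and Ppib in 5.

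Of 14 tested genes of the translocon and signal peptide processing, which bring new chains into the ER, 1 rose and 1 fell. The channel subunit gene Sec61a1 rose by 0.38 ± 0.09 (edgeR adjusted p = 0.0113) and the signal recognition particle receptor gene Srprb fell by 0.24 on the log2 scale (SE 0.08, edgeR adjusted p = 0.0351). Sec61b, at 0.24 ± 0.11, and Sec11c, at 0.23 ± 0.10, did not pass (edgeR adjusted p = 0.116 and 0.102). Of 18 tested genes of ER-associated degradation, which removes misfolded proteins, 2 rose and 0 fell, namely the lectin gene Os9 at 0.22 ± 0.07 (edgeR adjusted p = 0.0331) and the ubiquitin-conjugating enzyme gene Ube2j1 at 0.20 ± 0.07 (edgeR adjusted p = 0.0421). Edem3, at 0.15 ± 0.06, and Derl1, at -0.16 ± 0.06, did not pass (edgeR adjusted p = 0.0833 and 0.0659). Without the second and the third male hypoxia libraries the values were 0.37 for Sec61a1, -0.24 for Srprb, 0.16 for Os9 and 0.18 for Ube2j1. With the third female normoxia library left out as well, they were 0.44, -0.23, 0.21 and 0.21 in the same order. Sec61a1 passed with each of the 12 libraries left out in turn, Os9 with 4 of the 12, and Srprb and Ube2j1 with 2.

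On log2(TPM + 1), where the median of all genes lay at 0.19 and 31.5% of all genes were called higher, limma called 11 of the 17 further chaperones, 9 of the 15 disulfide isomerases and oxidases, 6 of the 13 calnexin cycle genes, 10 of the 16 sensors and factors, 5 of the 8 isomerases, 8 of the 14 translocon genes and 7 of the 18 degradation genes higher in hypoxia, and 0 lower. With average length offsets, 2 of the 17 further chaperones and 2 of the 15 disulfide isomerases and oxidases were called higher. So were 1 of the 13 calnexin cycle genes, 4 of the 16 sensors and factors and 1 of the 8 isomerases. Of the translocon genes 1 of 14 was, and of the degradation genes 0 of 18. Without a filter on low counts, 0 of 19 degradation genes and 0 of 13 calnexin cycle genes were called higher. These counts were chosen after the data were seen.

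The average effective transcript length of Hsp90b1 was 1814 bases in the first male hypoxia library and 1964 bases in the first female hypoxia library, against 2379.5 to 2548 bases in the other 10. That of Dnajb9 and of Pdia4 was the same in every library, 2211 and 2149 bases.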
